A study of Mus musculus with 6 samples.

Results

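The genes of the collagen chains were described across 6 RNA sequencing libraries. A gene was taken as a collagen chain where its symbol in the deposited count table had the form Col, a type number, a and a chain number. This gave 44 of the 23420 genes in the table. By the known structure of their proteins they fell into fibrillar collagens (11 genes), FACITs, the collagens that sit on fibril surfaces (9), basement membrane chains of type IV (6), network collagens of types VIII and X (3) and transmembrane collagens (4). The other chains were the multiplexins Col15a1 and Col18a1, the 6 beaded filament chains of type VI, the anchoring fibril chain Col7a1, and Col26a1 and Col28a1.

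The cells were mouse embryonic fibroblasts of a mixed 129/Sv-C57BL/6 background. All groups carried the adenoviral oncogene E1A and the activated Ras oncogene HrasG12V. The sgp53 group held cells of lines 1, 2 and 3 with the guide RNA sgp53(1) against the p53 gene, labelled p53 null in lines 1 and 3 and functionally inactive in line 2. The sgNTC group, labelled p53 wild-type, held cells of the same 3 lines with the guide sgNTC. Cells were kept at 5% oxygen for 24 h before harvest. A single p53 guide was used, and the labels say neither how the oncogenes were driven nor whether each line was a different embryo. The sample descriptions place 1 number on lines 2 and 3 and another on line 1, with no meaning given, so lines 2 and 3 may be closer to each other than to line 1. If so, the 3 lines would not be fully independent. The main test ignores the pairing by line, so its p-values set the group difference against the spread between libraries within a group. Those of the fit with the line as a term use the spread of the differences within lines. The question set by the design is how gene expression differs between cells with p53 null or inactive and p53 wild-type cells at this oxygen level.

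Libraries held 29564516 to 35860866 counts in sgp53 and 27503577 to 32536641 counts in sgNTC. The targeted gene, Trp53, was at 71.1, 72.0 and 113 CPM (counts scaled to a common library size) in sgp53 lines 1, 2 and 3, against 206, 277 and 253 CPM in sgNTC. The sgp53 library of line 3 stood apart. Its Rn45s, a precursor of ribosomal RNA, was at 3338 CPM, where every other library had 636 to 864 CPM. Its levels of the fibroblast markers Pdgfra (131 CPM), Prrx1 (242 CPM) and Thy1 (53.9 CPM) were also above those of every other library, which were at most 29.7, 65.9 and 4.30 CPM. Pdgfrb, S100a4 and Fap of the same marker list were highest in that library too. Vim and Twist1 of the list were not. Vim was at 3001 CPM there and 3354 CPM in sgNTC line 3, and Twist1 at 63.9 CPM there and 80.9 CPM in sgNTC line 2. Fold changes of collagen chains that moved by over 1.5 times without this library are given both ways.

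Collagens are secreted or membrane proteins in which chains wind into a triple helix whose core is lined by regularly spaced glycines. Fibrillar collagens assemble into the tensile fibres of connective tissue, and fibroblasts are their main producers. Type IV collagen forms the sheet-like network of basement membranes, and type VI forms beaded microfilaments around cells. Type I collagen joins chains of Col1a1 and Col1a2, so the RNAs of partner chains are of interest side by side.

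Both chains of type I collagen, the chain of type III, 2 chains of type V and 3 chains of other classes were higher in sgp53, and no chain was called lower. Of the 44 genes, 28 passed the filter on low counts and were tested with edgeR's quasi-likelihood test, with p-values adjusted over 13044 genes and a threshold of 0.05. Of these 28, 8 were called higher and 0 lower, where the test called 2.76% of the 13044 genes higher and 3.69% lower. The 8 were Col1a1, Col1a2, Col3a1, Col5a1 and Col5a2 of the fibrillar class, the FACITs Col12a1 and Col16a1, and the network chain Col8a1. At an unadjusted p under 0.05, edgeR had 15 chains higher and 1 lower, Col18a1, against 13.9% and 15.1% of all genes. In the blocked fit, which takes the line as a term, 8 chains were called higher and 0 lower (0.966% and 1.42% of all genes). DESeq2 called 13 higher and 0 lower (9.16% and 8.98% of all genes), and limma-voom 6 and 0 (2.18% and 3.17%). Without the sgp53 library of line 3, 7 chains were called higher (1.06% of all genes). Without both libraries of line 3, 0 chains were called higher, as were 0.0304% of all genes. The median log2 fold change (sgp53 over sgNTC) of the 28 was 1.11, and that of all genes was -0.01. In 13 of the 28 every sgp53 library lay above every sgNTC library, where 17.8% of all genes did so. The reverse held for 0 chains and for 19% of all genes. Among the 28, 5 would not have passed the filter on the sgNTC libraries alone (Col6a3, Col9a3, Col24a1, Col15a1 and Col8a2), and none of these is among the 8. Col6a3, Col24a1 and Col15a1 do count among the 13 without overlap and the 15 at an unadjusted p under 0.05. Col15a1 is also among the 13 of DESeq2. The filter let these chains in through sgp53, where they are high, so those counts rest partly on the filter.

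**Figure D1:**
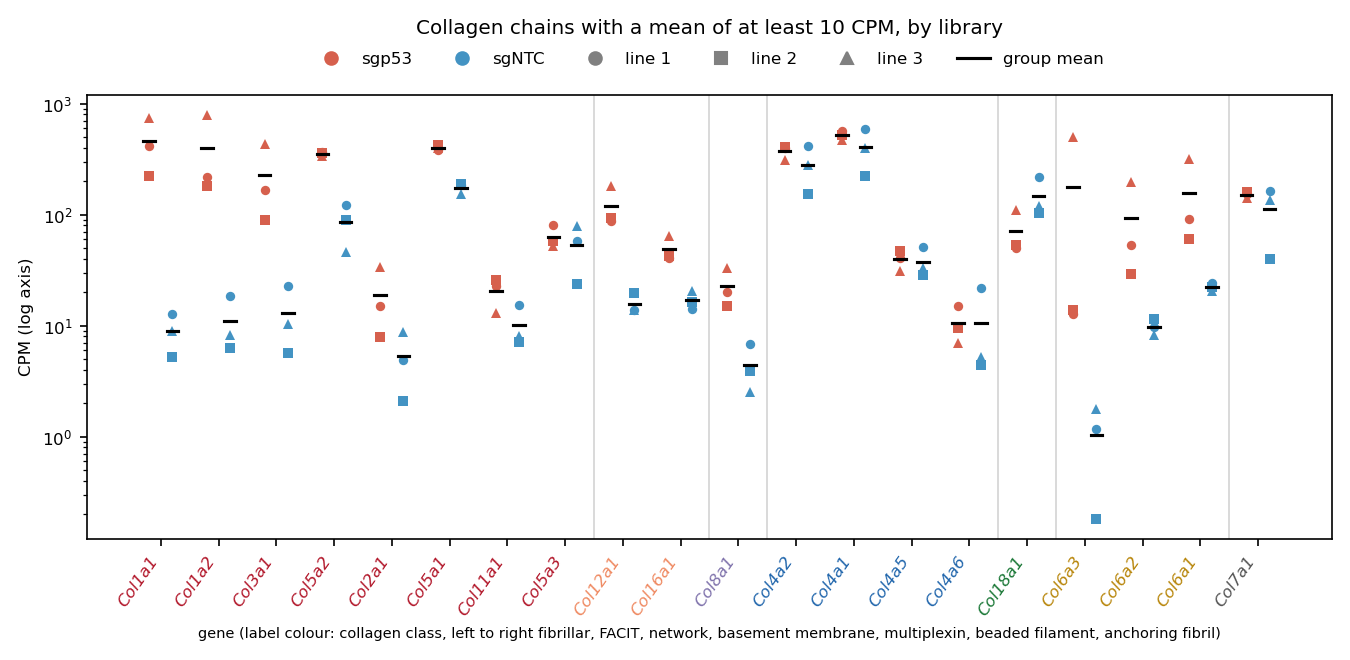
Levels of the 20 tested collagen chains with a mean of at least 10 CPM, on a log axis, for each sgp53 library (red, left) and sgNTC library (blue, right), with the line shown by the marker and the group mean by a bar. Col1a1 lay between 221 and 744 CPM in sgp53 and between 5.18 and 12.6 CPM in sgNTC, while the ranges of the type IV chains overlapped.

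The chains of type I collagen had the largest changes among those called. Col1a1 (chromosome 11, 94936224 to 94953042), which encodes the alpha-1 chain, was at 412, 221 and 744 CPM in sgp53 lines 1, 2 and 3, against 12.6, 5.18 and 8.91 CPM in sgNTC. Every sgp53 library was far above every sgNTC library, with a log2 fold change of 5.68 (SE 0.58, adjusted p by edgeR = 0.00728). Its partner Col1a2 (chromosome 6, 4505618 to 4541543) was at 218, 182 and 787 CPM in sgp53, against 18.3, 6.30 and 8.26 CPM in sgNTC. The groups were again apart, with a log2 fold change of 5.16 (SE 0.78, adjusted p by edgeR = 0.0210). The Col1a2 value was 4.18 without sgp53 line 3 and 5.76 without sgNTC line 1, and it was called in both fits. Its call was lost without sgp53 line 1 (adjusted p by edgeR = 0.0536), sgNTC line 2 (0.0640) or sgNTC line 3 (0.0936). The Col1a1 call was kept when any 1 library was left out (adjusted p by edgeR = 0.0158 to 0.0482). Ranked by fold change among the 13044 tested genes, Col1a1 stood at 5 and Col1a2 at 12.

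Col3a1, Col5a1 and Col5a2, whose collagens are found in fibres with type I, were also called higher. Col3a1 (chromosome 1, 45311538 to 45349706), the chain of type III collagen of pliable tissues, was at 167, 89.1 and 432 CPM in sgp53, against 22.9, 5.62 and 10.4 CPM in sgNTC. This was a log2 fold change of 4.13 (SE 0.77, adjusted p by edgeR = 0.0342), and 3.29 without sgp53 line 3 (adjusted p by edgeR = 0.0577). The Col3a1 call was also lost without sgp53 line 1 (0.0874), sgNTC line 2 (0.0859) or sgNTC line 3 (0.129), and without sgNTC line 1 its value was 4.83. Col5a1 (chromosome 2, 27886381 to 28039510), a chain of the type V collagen that sets fibril diameter, was at 381, 427 and 396 CPM in sgp53, against 183, 187 and 154 CPM in sgNTC. Its log2 fold change was 1.20 (SE 0.09, adjusted p by edgeR = 0.00279), and the differences within lines 1, 2 and 3 were close to one another at 1.06, 1.19 and 1.36. Its exons overlap those of the noncoding genes 2810430I11Rik and Gm13372 on the other strand by up to 113 bases, and such reads may be counted with it. The Col5a1 call was kept when any 1 library was left out. Col5a2 (chromosome 1, 45374331 to 45503282) was at 363, 358 and 336 CPM in sgp53, against 122, 89.4 and 45.9 CPM in sgNTC. The sgNTC libraries varied more than the sgp53 libraries, and the log2 fold change was 2.04 (SE 0.33, adjusted p by edgeR = 0.0244). The Col5a2 call was lost without any 1 of the sgp53 libraries (adjusted p by edgeR = 0.0581 to 0.0837) or without sgNTC line 2 (0.0705).

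The start regions of the collagen genes in the RefSeq table, 5 of the 8 called chains among them, were searched for 4 motifs of promoters and p53 binding; windows of Col1a1, Col5a2 and Col12a1 were not used here. Each window below runs from 250 bases before to 50 bases after a RefSeq start on GRCm38.p6, 5′ to 3′ on the gene's strand. That start need not be the outermost base of the gene. Capitals mark the CCAAT box (CCAAT), the GC box (GGGCGG) or the TATA box (TATAAA), each searched on both strands, so that ATTGG and CCGCCC are matches too. Of all 32851 windows in the RefSeq table, 37.4% hold a CCAAT box, 35.7% a GC box, 13.6% the TATA box and 8.36% a p53 half-site. The windows are those of Col1a2 at chr6:4505368-4505667 (plus strand), Col3a1 at chr1:45311288-45311587 (plus strand) and Col5a1 at chr2:27886175-27886474 (plus strand), shown because these chains were called higher.
Col1a2: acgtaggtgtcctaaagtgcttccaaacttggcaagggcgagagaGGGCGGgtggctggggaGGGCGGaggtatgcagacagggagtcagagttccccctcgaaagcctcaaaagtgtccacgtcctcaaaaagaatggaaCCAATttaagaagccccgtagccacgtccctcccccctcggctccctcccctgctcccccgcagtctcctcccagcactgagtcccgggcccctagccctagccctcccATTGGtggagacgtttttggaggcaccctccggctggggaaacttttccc
Col3a1: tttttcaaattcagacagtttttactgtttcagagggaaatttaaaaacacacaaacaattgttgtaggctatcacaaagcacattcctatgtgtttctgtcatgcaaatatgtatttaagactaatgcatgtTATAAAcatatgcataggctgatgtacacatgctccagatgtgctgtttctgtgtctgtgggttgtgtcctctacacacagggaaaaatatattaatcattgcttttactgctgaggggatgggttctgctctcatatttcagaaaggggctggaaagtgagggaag
Col5a1: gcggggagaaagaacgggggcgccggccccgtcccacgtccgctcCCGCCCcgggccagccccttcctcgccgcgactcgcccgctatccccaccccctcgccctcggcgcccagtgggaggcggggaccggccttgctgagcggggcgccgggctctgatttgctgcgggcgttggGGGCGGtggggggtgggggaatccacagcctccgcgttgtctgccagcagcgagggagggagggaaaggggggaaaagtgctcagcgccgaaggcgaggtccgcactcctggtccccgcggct
Col1a2 holds 2 CCAAT boxes and 2 GC boxes, Col5a1 holds 2 GC boxes, and Col3a1 holds 1 TATA box, whose first base lies 117 bases before the start, with neither of the others. Of the 38 collagen windows in the table, which cover 35 of the genes, 13 hold a CCAAT box, 23 a GC box, 5 a TATA box and 4 a p53 half-site. No p53 half-site was found in the 5 windows of called chains, which says only that these letters are not in them.

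The remaining fibrillar chains were not called without the block, and all had a positive log2 fold change between the groups. Col2a1, the chain of cartilage collagen, was at 15.1, 7.87 and 33.7 CPM in sgp53, against 4.93, 2.10 and 8.84 CPM in sgNTC. Its group ranges overlapped (log2 fold change 1.83, SE 0.68, adjusted p by edgeR = 0.137), but the differences within lines 1, 2 and 3 were 1.60, 1.87 and 1.92, and it was called with the line as a block (adjusted p by edgeR = 0.0178). The chondrocyte markers Sox9, Acan, Matn1, Matn3, Comp and Hapln1 summed to 124 to 145 CPM in sgp53 and 70.7 to 170 CPM in sgNTC, nearly all of it Sox9, with Matn1 at 0 in every library. Col11a1, a chain of the minor cartilage fibril collagen, was at 22.8, 25.6 and 13.0 CPM in sgp53, against 15.2, 7.07 and 8.09 CPM in sgNTC (log2 fold change 1.01, SE 0.37, adjusted p by edgeR = 0.134). Col5a3, the third type V chain, was at 80.9, 57.4 and 52.0 CPM in sgp53, against 57.3, 23.5 and 79.1 CPM in sgNTC, with no call (log2 fold change 0.25, SE 0.42, adjusted p by edgeR = 0.722). Col24a1, Col27a1 and Col11a2 were scarce, at 0.180 to 3.04 CPM in every library, and their log2 fold changes were 1.84, 0.34 and 0.24, none called. Without sgp53 line 3 the log2 fold change was 1.11 for Col2a1 and 1.10 for Col24a1. The class median log2 fold change was 1.83, and the median difference within lines 1, 2 and 3 was 1.47, 1.85 and 1.92. The blocked fit called 6 of the 11 chains higher, DESeq2 7 and limma-voom 4, the last without Col3a1 (adjusted p by limma-voom = 0.0569).

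Among FACITs, which decorate fibrils without forming fibres of their own, 2 of 5 tested chains were called higher and the others showed no common direction. Col12a1, which bridges fibrils and the surrounding matrix, was at 88.2, 94.0 and 180 CPM in sgp53, against 13.9, 19.5 and 13.7 CPM in sgNTC. Every sgp53 library was above every sgNTC library, with a log2 fold change of 2.94 (SE 0.33, adjusted p by edgeR = 0.00906). The Col12a1 call was lost without sgNTC line 3 (adjusted p by edgeR = 0.0536). Col16a1 was at 40.6, 42.6 and 63.7 CPM in sgp53, against 14.2, 16.4 and 20.7 CPM in sgNTC (log2 fold change 1.52, SE 0.22, adjusted p by edgeR = 0.0193). The Col16a1 call was lost without sgp53 line 1 (adjusted p by edgeR = 0.0534), sgNTC line 2 (0.0604) or sgNTC line 3 (0.0536). Its window at chr4:130047590-130047889 (plus strand, GRCm38.p6) holds 1 CCAAT box and 2 GC boxes.
Col16a1: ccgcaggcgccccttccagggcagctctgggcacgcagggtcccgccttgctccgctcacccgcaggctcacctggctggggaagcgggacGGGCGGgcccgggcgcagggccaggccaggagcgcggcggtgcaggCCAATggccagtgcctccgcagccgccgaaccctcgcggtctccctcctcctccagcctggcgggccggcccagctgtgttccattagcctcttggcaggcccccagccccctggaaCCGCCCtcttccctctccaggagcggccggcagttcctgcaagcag
The cartilage FACIT chain Col9a2 was at 6.59, 4.34 and 5.97 CPM in sgp53, against 7.88, 1.23 and 8.91 CPM in sgNTC, so that only line 2 was higher in sgp53. Col9a3 (0.271 to 0.751 CPM) and Col20a1 (0.445 to 1.73 CPM) were scarce and not called. The class median log2 fold change was -0.02, and the median difference within lines 1, 2 and 3 was -0.04, 1.37 and 0.82.

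**Figure D2:**
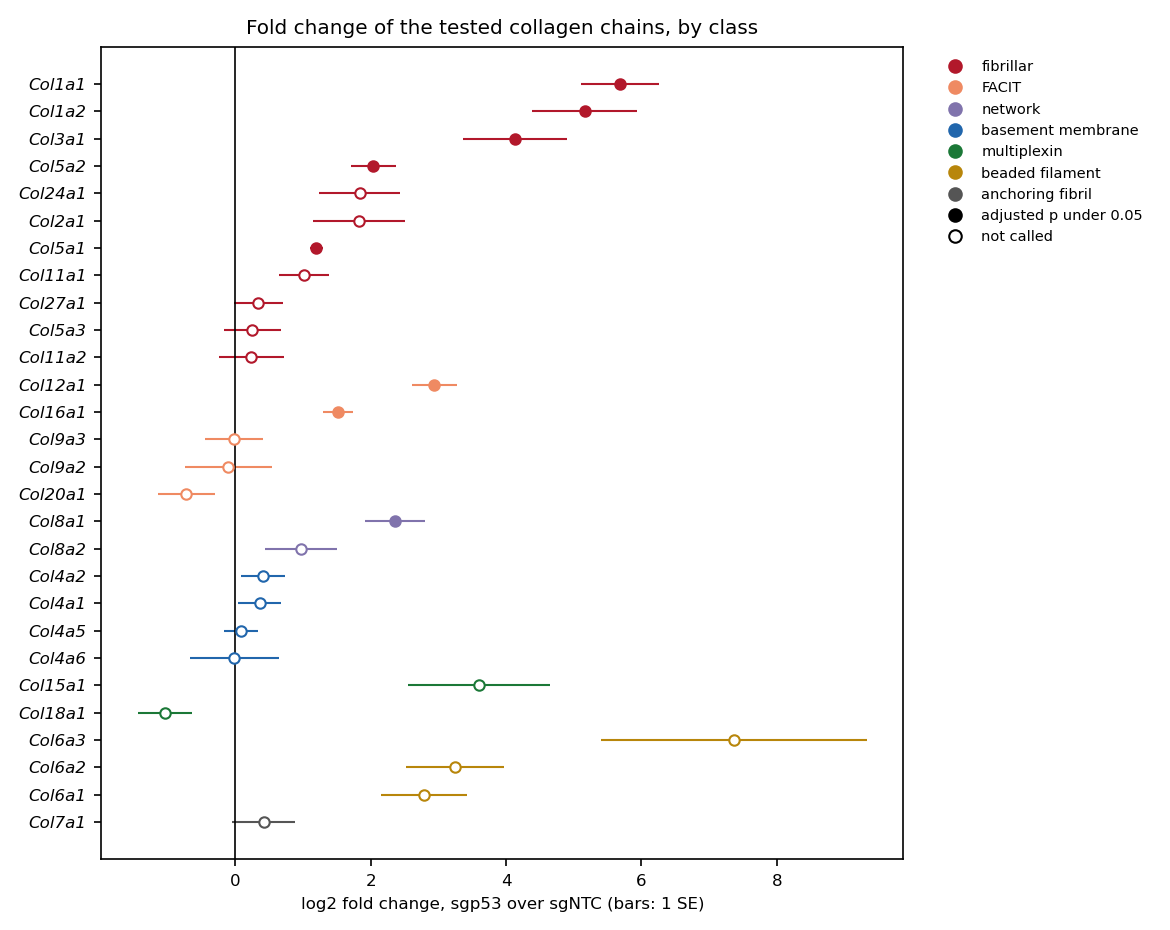
Log2 fold change of each of the 28 tested collagen chains, sgp53 over sgNTC, with bars of 1 SE, coloured by class, with filled points for adjusted p under 0.05. The filled points are 5 fibrillar chains, 2 FACITs and the network chain Col8a1, and the 4 type IV chains lie within 0.41 of zero.

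Col8a1, a short chain that forms hexagonal networks, was the network collagen measured in depth. It was at 20.2, 14.9 and 33.0 CPM in sgp53, against 6.85, 3.88 and 2.51 CPM in sgNTC, with no overlap. The log2 fold change was 2.36 (SE 0.45, adjusted p by edgeR = 0.0358), and the call was lost with the line as a block (adjusted p by edgeR = 0.0818) and when any 1 library other than sgNTC line 1 was left out (0.0547 to 0.105). The differences within lines 1, 2 and 3 were 1.55, 1.92 and 3.68. Its window at chr16:57754688-57754987 (minus strand, GRCm38.p6) holds 4 GC boxes, read here as CCGCCC.
Col8a1: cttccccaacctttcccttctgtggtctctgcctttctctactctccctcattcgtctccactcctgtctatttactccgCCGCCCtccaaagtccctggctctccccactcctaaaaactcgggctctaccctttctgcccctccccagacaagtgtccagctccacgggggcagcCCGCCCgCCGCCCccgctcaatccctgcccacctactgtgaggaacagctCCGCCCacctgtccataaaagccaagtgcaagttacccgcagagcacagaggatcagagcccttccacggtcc
Its partner Col8a2 had 0.135 to 0.667 CPM and was not called (log2 fold change 0.97, SE 0.53). Col10a1, the network collagen of hypertrophic cartilage, had at most 11 counts in a library.

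The 3 tested chains of type VI were higher in every sgp53 library than in any sgNTC library, and edgeR called 0 of them, with or without the block. All 3 had an unadjusted p under 0.05, DESeq2 called 2 of them and limma-voom 0. Of all genes, 17.8% were higher without overlap and 13.9% were higher at an unadjusted p under 0.05 by edgeR. DESeq2 called 9.16% of all genes higher and limma-voom 2.18%. Col6a3 would not have passed the filter on the sgNTC libraries alone, so its part in these counts rests on the filter. Col6a1 was at 90.7, 60.0 and 314 CPM in sgp53, against 24.4, 22.2 and 20.6 CPM in sgNTC (log2 fold change 2.79, SE 0.63, adjusted p by edgeR = 0.0528). Col6a2 was at 52.9, 29.3 and 195 CPM in sgp53, against 9.62, 11.4 and 8.23 CPM in sgNTC (log2 fold change 3.25, SE 0.72, adjusted p by edgeR = 0.0518). Without sgp53 line 3 the log2 fold changes were 1.75 and 2.08, and both genes then passed the threshold (adjusted p by edgeR = 0.0213 and 0.0332). Col6a3, the long chain that completes the type VI monomer, was at 12.6, 13.9 and 501 CPM in sgp53, against 1.17, 0.181 and 1.76 CPM in sgNTC. A single library held nearly all of its RNA, and its log2 fold change of 7.37 (SE 1.96), the highest of all tested genes, was 3.66 without that library. Col6a3 was called neither without the block (adjusted p by edgeR = 0.0724) nor with it (0.0659), nor without that library (0.0702, no block). DESeq2 gave it no adjusted p. Col6a4, Col6a5 and Col6a6 had at most 15 counts in a library.

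Type IV collagen, the basement membrane class, was abundant in both groups and not called. Of 4 tested chains, 0 passed the threshold in edgeR, in the blocked fit, in DESeq2 or in limma-voom, and 0 had an unadjusted p under 0.05. Of all genes, edgeR called 2.76% higher and 3.69% lower, the blocked fit 0.966% and 1.42%, DESeq2 9.16% and 8.98%, and limma-voom 2.18% and 3.17%. At an unadjusted p under 0.05, edgeR had 13.9% and 15.1%. Beside these shares, 0 of 4 does not set the class apart from all genes. Col4a1 was at 562, 517 and 470 CPM in sgp53, against 587, 223 and 401 CPM in sgNTC (log2 fold change 0.36, SE 0.32). Col4a2 was at 400, 407 and 312 CPM in sgp53, against 411, 153 and 279 CPM in sgNTC (log2 fold change 0.41, SE 0.33). For both genes sgNTC line 2 was the lowest of the 6 libraries and the group ranges overlapped, and within line 2 the difference was 1.22 for Col4a1 and 1.41 for Col4a2. These genes stand head to head on chromosome 8, and their outermost RefSeq bounds start 84 bases apart. The Col4a1 window is placed on a start inside its outermost bound. The 2 windows share 78 bases, chr8:11312777-11312854 (GRCm38.p6, given on the plus strand of Col4a2), which hold 1 GC box.
Col4a1 and Col4a2 shared: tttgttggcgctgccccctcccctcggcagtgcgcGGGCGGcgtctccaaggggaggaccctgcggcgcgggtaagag
Col4a5 was at 40.8, 47.0 and 31.1 CPM in sgp53, against 51.1, 28.3 and 33.1 CPM in sgNTC. Col4a6, head to head with it on the X chromosome, was at 15.0, 9.59 and 7.02 CPM in sgp53, against 22.0, 4.42 and 5.25 CPM in sgNTC. Their log2 fold changes were 0.08 (SE 0.25) and -0.01 (SE 0.65). The class median difference was -0.19, 1.16 and 0.19 within lines 1, 2 and 3. Col4a3 and Col4a4, the chains of the kidney glomerulus, had at most 16 counts in a library.

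The anchoring fibril chain Col7a1, which fastens epithelial basement membranes to the tissue beneath, did not separate the groups. It was at 152, 159 and 142 CPM in sgp53, against 163, 39.9 and 136 CPM in sgNTC (log2 fold change 0.42, SE 0.46, adjusted p by edgeR = 0.581). The differences within lines 1, 2 and 3 were -0.10, 1.99 and 0.06. The fold changes of the multiplexins had opposite signs. Col18a1, whose C-terminal fragment is endostatin, was at 50.1, 53.5 and 110 CPM in sgp53, against 216, 103 and 120 CPM in sgNTC. Its differences within lines 1, 2 and 3 were -2.10, -0.95 and -0.13, the group ranges overlapped, and it was not called (log2 fold change -1.04, SE 0.40, adjusted p by edgeR = 0.146). Col15a1 was at 2.19, 1.06 and 7.37 CPM in sgp53, against 0.631, 0.0362 and 0.169 CPM in sgNTC (log2 fold change 3.60, SE 1.05, adjusted p by edgeR = 0.0872), and its log2 fold change was 2.48 without sgp53 line 3 and 5.02 without sgNTC line 1. The sgNTC value of line 2 is 1 count.

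Transmembrane collagens, which span the cell surface, were hardly detected. Of the 4 genes, 0 passed the filter, so none was tested, and Col23a1, Col25a1, Col17a1 and Col13a1 had at most 16 counts in a library. Over all 16 untested chains the counts summed over 6 libraries ranged from 0, for Col9a1, to 54.

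**Figure D3:**
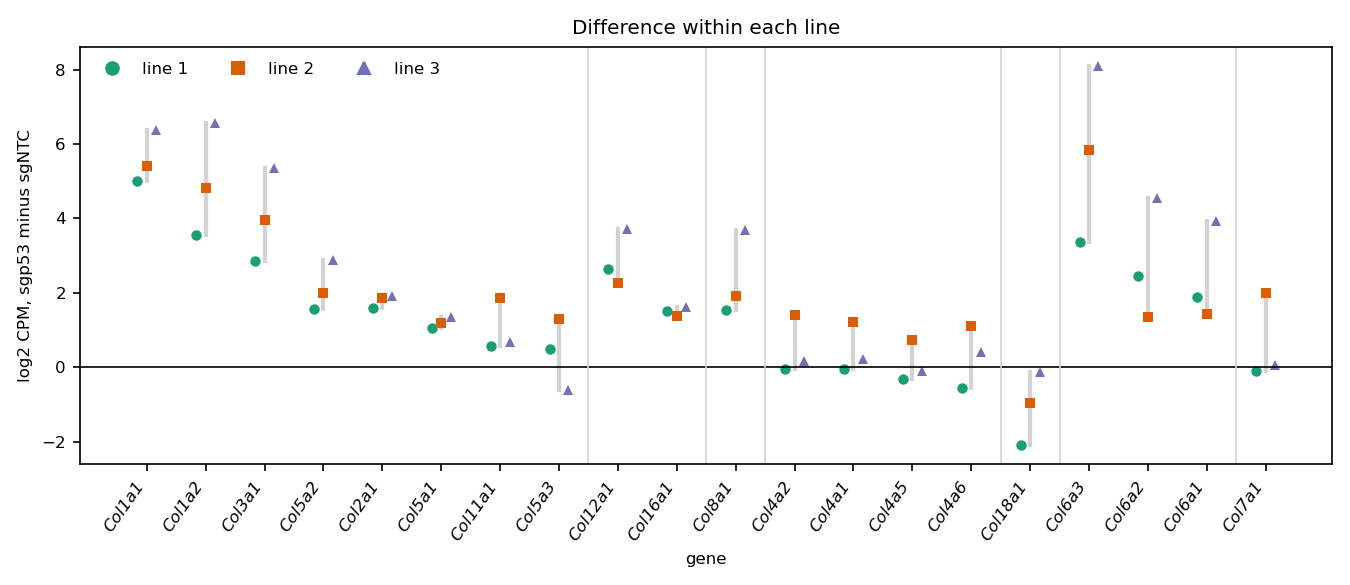
Difference in log2 CPM, sgp53 minus sgNTC, within each line for the 20 chains with a mean of at least 10 CPM, with a grey bar over the range of the lines. Line 3 is highest for Col1a2 (6.56) and Col6a3 (8.10), while line 2 is highest for Col4a1, Col4a2 and Col7a1.

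The make-up of collagen RNA was compared on a per-length scale, CPM per kb of merged exons, summed over chains. Fibrillar chains made up 52.6%, 48.8% and 57.1% of this pool in sgp53 lines 1, 2 and 3, against 21.5%, 31.7% and 22.6% in sgNTC. Type IV chains made up 31.5%, 35.4% and 15.3% in sgp53, against 56.0%, 44.5% and 53.7% in sgNTC. Neither pair of ranges overlapped. A share also falls when the rest of the pool grows. The type IV sum itself was 156, 150 and 125 CPM per kb in sgp53, against 164, 62.3 and 110 CPM per kb in sgNTC. Those ranges overlapped, so the lower share does not mean less type IV RNA. The multiplexin share was 1.57%, 1.90% and 2.13% in sgp53, against 10.9%, 10.9% and 8.64% in sgNTC. As a sum, multiplexins were at 7.74, 8.05 and 17.4 CPM per kb in sgp53, against 31.8, 15.2 and 17.7 CPM per kb in sgNTC, with overlap. The type VI share was 6.51%, 4.91% and 19.0% in sgp53, against 2.63%, 5.25% and 3.22% in sgNTC, so that line 2 did not differ in that direction. The pool as a whole was 494, 424 and 816 CPM per kb in sgp53, against 292, 140 and 204 CPM per kb in sgNTC. On this scale Col4a1 made up 17.2%, 18.5% and 8.70% of the pool in sgp53, against 30.4%, 24.0% and 29.7% in sgNTC. Col1a1 made up 14.1%, 8.79% and 15.4% in sgp53, and was not among the 8 most abundant chains of any sgNTC library. Col4a1 was the most abundant chain in every library except sgp53 line 3, where Col1a2 led with 18.0% of the pool and Col4a1 stood at rank 5. All chains together took 0.316%, 0.284% and 0.499% of counts in sgp53, against 0.202%, 0.0961% and 0.141% in sgNTC.

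**Figure D4:**
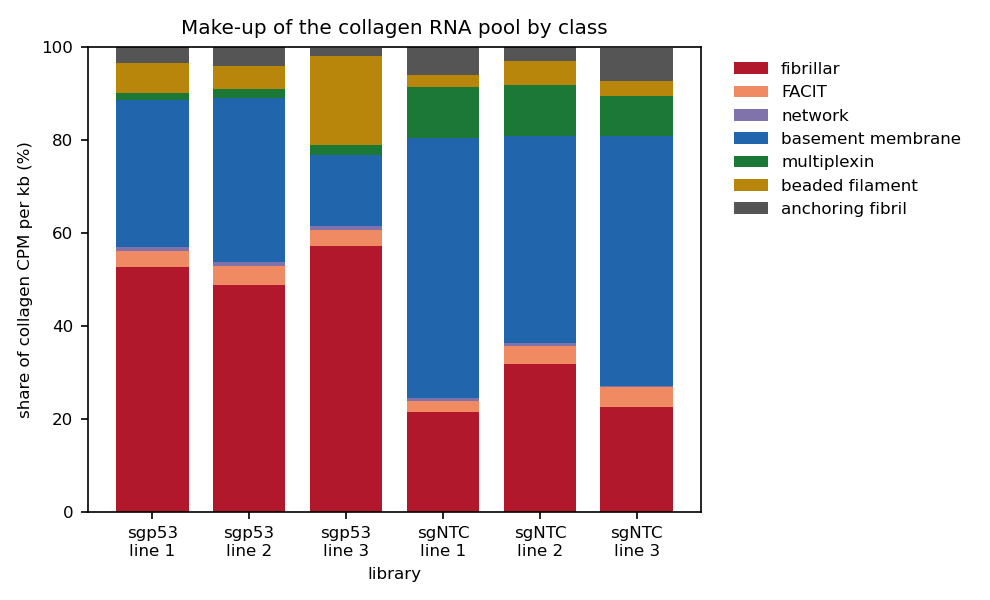
Share of summed collagen CPM per kb taken by each class in each sgp53 library (left) and sgNTC library (right); transmembrane and other chains are too few to see. The fibrillar share is 48.8% to 57.1% in sgp53 and 21.5% to 31.7% in sgNTC.

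The ratios of partner chains overlapped between the groups in types I and IV, for Col9a3 with Col9a2 and for Col6a1 with Col6a2. They did not overlap in types V and VIII or for Col6a3 with Col6a1. On the per-length scale the ratio of Col4a1 to Col4a2 was 1.37, 1.24 and 1.47 in sgp53, against 1.39, 1.42 and 1.40 in sgNTC. The ratio of Col4a5 to Col4a6 was 2.77, 4.98 and 4.51 in sgp53, against 2.36, 6.50 and 6.41 in sgNTC. The ratio of Col5a1 to Col5a2 was 0.829, 0.941 and 0.931 in sgp53, against 1.19, 1.65 and 2.65 in sgNTC, without overlap. The ratio of Col1a1 to Col1a2 was 1.71, 1.10 and 0.853 in sgp53, against 0.621, 0.741 and 0.972 in sgNTC, and these ranges overlapped. The ratio of Col6a1 to Col6a2 was 2.52, 3.00 and 2.35 in sgp53, against 3.72, 2.85 and 3.67 in sgNTC. The ratio of Col6a3 to Col6a1 was 0.0525, 0.0877 and 0.603 in sgp53, against 0.0181, 0.00308 and 0.0323 in sgNTC. Col6a3 had only 39, 5 and 52 counts in sgNTC lines 1, 2 and 3. For the scarce Col9a3 over Col9a2, the ratio was 0.0746, 0.0923 and 0.0847 in sgp53, against 0.0916, 0.339 and 0.0292 in sgNTC. The ratio of Col8a1 to the scarce Col8a2, which has at most 19 counts in a library, was 62.8, 30.3 and 42.0 in sgp53, against 16.1, 18.1 and 15.7 in sgNTC. The ratios are descriptions and were not tested.

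Genes that make, bind and break down collagen were taken from lists of textbook members, with a median log2 fold change of 0.30 for folding and modification, 1.10 for processing and crosslinking, 0.36 for receptors and 1.18 for proteases, where all genes had -0.01. Of 19 tested genes of folding, modification and secretion, 7 were called higher and 0 lower, where 2.76% of all genes were called higher and 3.69% lower. With the block these counts were 1 and 0 (0.966% and 1.42% of all genes), and DESeq2 called 9 higher and 1 lower (9.16% and 8.98% of all genes). They included Serpinh1, the collagen chaperone HSP47, at 636, 696 and 620 CPM in sgp53 and 448, 366 and 393 CPM in sgNTC, with a log2 fold change of 0.69 (adjusted p by edgeR = 0.0138, blocked 0.0506). The lysyl hydroxylase gene Plod1 was called in both fits, at 44.0, 44.4 and 67.7 CPM in sgp53 and 26.7, 27.5 and 30.9 CPM in sgNTC (log2 fold change 0.87, adjusted p by edgeR = 0.0448, blocked 0.0481). The lysyl hydroxylase gene Plod3 was at 271, 209 and 294 CPM in sgp53 and 177, 145 and 154 CPM in sgNTC. P4ha2, a prolyl hydroxylase subunit, was at 64.1, 68.3 and 57.8 CPM in sgp53 and 40.6, 47.8 and 47.5 CPM in sgNTC, and Lepre1, which hydroxylates proline at another position, at 42.8, 48.1 and 44.0 CPM in sgp53 and 34.6, 29.9 and 35.6 CPM in sgNTC. The folding enzyme gene Fkbp10 was at 204, 181 and 196 CPM in sgp53 and 140, 147 and 155 CPM in sgNTC, and the collagen galactosyltransferase gene Glt25d1 at 160, 145 and 160 CPM in sgp53 and 129, 130 and 119 CPM in sgNTC. These 5 had log2 fold changes between 0.30 and 0.70 and were called without the block only. Plod2, the lysyl hydroxylase of the chain ends, was lower in every sgp53 library, at 154, 148 and 101 CPM in sgp53 and 225, 193 and 241 CPM in sgNTC, and was not called (log2 fold change -0.70, adjusted p by edgeR = 0.0613). Of 12 tested genes of propeptide removal and crosslinking, 4 were called higher and 0 lower, and as many with the block. Lox, the lysyl oxidase that crosslinks fibrils, was at 125, 105 and 234 CPM in sgp53, against 5.50, 1.67 and 4.13 CPM in sgNTC (log2 fold change 5.34). Loxl1, of the same enzyme family, was at 36, 30.9 and 97.8 CPM in sgp53, against 1.41, 0.870 and 3.01 CPM in sgNTC (log2 fold change 4.95). The propeptidase gene Tll1 was at 19.7, 13.7 and 10.9 CPM in sgp53, against 5.74, 4.67 and 3.22 CPM in sgNTC (1.70), and the propeptidase enhancer Pcolce at 348, 441 and 446 CPM in sgp53, against 165, 207 and 244 CPM in sgNTC (1.00). In all 4 genes every sgp53 library was above every sgNTC library. Of 8 tested collagen receptors edgeR called 1, Itga11, the integrin subunit for fibrillar collagen, at 1.95, 3.03 and 3.76 CPM in sgp53 and 0.180, 0.0725 and 0.169 CPM in sgNTC. All 3 sgNTC values are under the filter of 0.337 CPM, so Itga11 was tested only through the group where it is high. Of 4 tested collagen-degrading proteases edgeR called 0, with 2 higher at an unadjusted p under 0.05 (13.9% of all genes). Of these proteases DESeq2 called 1 higher (9.16% of all genes) and limma-voom 0. The most abundant were Mmp14, at 118, 123 and 141 CPM in sgp53 and 95.1, 122 and 102 CPM in sgNTC, and Mmp2, at 36.9, 18.7 and 27.1 CPM in sgp53 and 9.59, 1.09 and 8.47 CPM in sgNTC.

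Markers of some cell types also differed between the groups. For the counts below, edgeR called 2.76% of all genes higher and 3.69% lower, DESeq2 9.16% and 8.98%, and limma-voom 2.18% and 3.17%. At an unadjusted p under 0.05, edgeR had 13.9% of all genes higher and 15.1% lower. The 5 smooth muscle markers summed to 713 to 1094 CPM in sgp53 and 24.9 to 104 CPM in sgNTC, and Acta2, Tagln and Cnn1 were called higher, while Myh11 was at most 1.79 CPM. Des of that list was lower in every sgp53 library, at 0.649, 0.306 and 0.456 CPM in sgp53, against 1.08, 1.78 and 1.25 CPM in sgNTC, and missed the threshold (log2 fold change -1.54, adjusted p by edgeR = 0.0614), while DESeq2 called 1 marker of the list lower. The 6 epithelial markers summed to 116 to 165 CPM in sgp53 and 294 to 689 CPM in sgNTC. Most of the sgNTC sum was Krt18, at 518, 542 and 185 CPM in lines 1, 2 and 3. Of the list 1 was called lower, Krt18 (adjusted p by edgeR = 0.0295, blocked 0.0534). Epcam, Krt8 and Krt19 had log2 fold changes of -1.17, -0.77 and -0.38, and Cdh1 of 0.10, none called by edgeR. Epcam was lower in every sgp53 library, at 41, 33.2 and 25.5 CPM in sgp53, against 54.1, 100 and 69.9 CPM in sgNTC (adjusted p by edgeR = 0.0528). DESeq2 called 2 epithelial markers lower and limma-voom 1. Krt14 was at 0 in all but 1 library. The 8 fibroblast markers summed to 2719 to 3717 CPM in sgp53 and 2866 to 3493 CPM in sgNTC, most of it Vim, and 1 was called higher, Fap (adjusted p by edgeR = 0.0380, blocked 0.0825), at 0.500 to 1.61 CPM in sgp53 and 0.0677 to 0.150 CPM in sgNTC. Its sgNTC values are all under the filter of 0.337 CPM, so it too was tested only through sgp53. The median log2 fold change of the 8 was 1.71, with 5 higher at an unadjusted p under 0.05, 3 higher by DESeq2 and 0 by limma-voom. Among them, Pdgfrb was at 53.5, 57.4 and 124 CPM in sgp53, against 26.6, 12.0 and 33.8 CPM in sgNTC, and S100a4 at 8.57, 15.8 and 99.4 CPM in sgp53, against 2.86, 1.74 and 2.91 CPM in sgNTC (adjusted p by edgeR = 0.0794 and 0.0626). Vim and Twist1 of the same list had negative log2 fold changes (-0.22 and -0.12) and were not called, while the rest of the list was positive. Osteoblast markers summed to 44.0 to 60.3 CPM in sgp53 and 45.6 to 51.7 CPM in sgNTC, with 0 of 2 called by edgeR, 0 at an unadjusted p under 0.05, and 0 by DESeq2 or limma-voom. The remaining lists, of endothelial, blood, Schwann and skeletal muscle markers, summed to at most 8.31 CPM in sgp53 and 16.1 CPM in sgNTC, and of these Cd68 was called lower. The part of these markers, or of Rn45s, in the collagen results was not tested. In bulk RNA, more cells rich in collagen RNA and more collagen RNA per cell cannot be told apart.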

How the data were processed

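RNA of 6 libraries was measured by stranded RNA sequencing from 1 µg of total RNA, per the labels' protocols. Values in the deposited file are raw counts for each gene symbol. STAR, DESeq2, CASAVA 1.8 and mm10 stand in the submitters' processing notes, without roles. How reads were counted, with which annotation and on which strand, is not given in the sources used here. Reads of genes overlapping on opposite strands, such as Col4a1 and Col4a2 at their starts or Col9a3 and Tcfl5, may therefore have been counted together. The authors applied no normalization to the counts.

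Counts were tested in R 4.3.3 with edgeR 4.0.16 (quasi-likelihood F-test, TMM, filterByExpr with a minimum count of 10, that is 0.337 CPM in 3 libraries, no covariate), sgp53 over sgNTC, with Benjamini-Hochberg adjustment over 13044 genes. SE is the coefficient over the square root of F. CPM uses TMM-normalized totals, and log2 CPM a prior count of 2. Alternatives were DESeq2 1.42.0, limma-voom (limma 3.58.1), other scalings and filters, and left-out libraries or lines. Line numbers pair the libraries because both come from the same cell line; deviations from group means correlated at 0.089, 0.0018 and -0.027, and blocked values stand beside a result where they change a call. The scripts were tested on simulated data.

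All 44 chains matched RefSeq (GRCm38.p6, the assembly of mm10), the source of coordinates and sequences; exon lengths are from GENCODE M21. Values in every library are given for chains called in either fit or with a mean of at least 10 CPM, and for called members of the pathway lists, or the 2 most abundant where none was called. Members and lists were chosen with earlier results of these data known. Repeats in the proteins were not analysed here.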

Additional observations from a re-analysis of the deposited data

Results flagged for a closer look

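Among the 20 tested chains with a mean of at least 10 CPM, 6 differed in sign between lines, each line being 1 pair of libraries, so that the difference between lines was not tested. The gap in log2 difference (sgp53 minus sgNTC) between the highest and the lowest line was 1.28 for Col4a1, 1.45 for Col4a2, 1.06 for Col4a5, 1.66 for Col4a6, 1.89 for Col5a3 and 2.09 for Col7a1. In all 6 genes line 2 was the highest of the lines, at 1.22, 1.41, 0.73, 1.11, 1.29 and 1.99 in that order. The lowest line was line 1, except for Col5a3, where line 3 was at -0.60. The sgNTC library of line 2 had the lowest level of each of the 6 genes. Single genes were not searched for outlying libraries, since each group holds 3.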

How the results depend on the processing

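The 28 fold changes under the alternatives gave 529 values, of which 411 kept their sign and side of the threshold, 63 lost a call, 14 gained one and 41 changed sign. Among the 411, Col6a3 with DESeq2 had no adjusted p and was counted by its sign alone. No chain was called lower under any alternative that was run, and no called chain changed sign. DESeq2 called 13 chains higher. Over all genes the higher and lower counts were 126 and 185 with the line as a block, which pairs the libraries, and 1195 and 1172 with DESeq2, and the block changed the call of Col2a1 and Col8a1 and of no other chain. The fibrillar median was 1.52, and the FACIT median 0.71, with a minimum of 1 CPM in 3 libraries, where fewer scarce chains are tested, and the fibrillar median was 1.58 with limma-voom (the cause was not tested). Leaving out 1 library or 1 line gave 0 to 8 chains called higher, 4 to 251 genes higher and 15 to 449 lower over all genes, and medians of 1.21 to 2.03 (fibrillar) and -0.09 to 0.45 (FACIT). Leaving out 1 line in the blocked fit gave 0 to 6 chains, 0 to 68 genes higher and 0 to 58 lower (4 and 9 without line 3), and medians of 1.39 to 1.78 and 0.14 to 0.73. Without line 1, 0 chains were called higher in the unblocked fit, and without line 2, 2. Such fits have 2 libraries per group and, without line 3, called only 0.0304% of all genes higher. Whether the lost calls are particular to collagen chains was not tested. Signs changed only for chains whose fold change lay between -0.10 and 0.42. Col9a3 and Col9a2 were at 0.07 and 0.25 with the block and at 0.08 and 0.24 with limma-voom, and Col4a6 at 0.31 and 0.26 there and at 0.00 with DESeq2 and with upper quartile scaling. With libraries or lines left out, without and with the block, the ranges were -0.36 to 0.45 and -0.32 to 0.43 (Col9a3), -0.58 to 0.30 and -0.41 to 0.73 (Col9a2, at 0.57 without line 1), -0.38 to 1.12 and -0.07 to 0.77 (Col4a6), -0.22 to 0.37 and -0.20 to 0.32 (Col4a5), -0.10 to 0.77 and -0.04 to 0.89 (Col5a3), -0.02 to 0.78 and -0.01 to 1.02 (Col7a1), and -0.06 to 0.59 and -0.05 to 0.50 (Col27a1). Col11a2 lay between -0.11 and 0.97 without the block. Depth limits the 16 untested chains, which had at most 16 counts in a library.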
